A study of Homo sapiens with 9 samples.

Results

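The 8 genes followed here encode ligands by which a cell can restrain or engage immune cells: *CD70*, *CD274* (PD-L1), *PDCD1LG2* (PD-L2), *CD276* (B7-H3), *NECTIN2*, *PVR*, *LGALS9* (galectin-9) and *CD47*. They were chosen by symbol, each was matched to its NCBI gene identifier, and all 8 were found among the 28395 genes of the count table. Their mRNA was read in HK2, an immortalised line of normal proximal tubule cells of the kidney, in 786-O, a line from a primary clear cell renal cell carcinoma (ccRCC), and in 786-M1A, a derivative of 786-O recovered from a lung metastasis after injection in vivo. All cells were untreated and grown stably in Plasmax, a medium modelled on the nutrients of human serum, and 3 libraries of poly(A) RNA were sequenced per line, 9 in all. Each line is 1 established line, so that a difference between lines is not one between normal kidney, primary tumors and metastases in general, and the replicates are dishes of the same line.

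Checkpoint ligands sit on the surface of tumor and antigen-presenting cells and bind receptors on T cells, natural killer cells or macrophages. PD-L1 and PD-L2 engage PD-1 and dampen T cell activation, NECTIN2 and PVR are shared by the inhibitory receptor TIGIT and the activating receptor CD226, and CD47 binds SIRPA on macrophages and restrains phagocytosis. CD70, the ligand of CD27, is normally found on activated lymphocytes and is known to be made by ccRCC cells, while PD-L1 is induced by interferon gamma.

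The totals over all genes ran from 30212291 to 45362428 counts per library. Values are given as CPM, the per-million scaling of counts to the total of the tested genes corrected by edgeR's TMM factors, and a difference is called when the adjusted p-value of edgeR's quasi-likelihood test over all 12695 genes tested is under 0.05. All 8 ligands passed the filter of a mean of at least 50 counts. The lines differed in most genes, so each count of called ligands is read against the share of all genes called, and with 3 libraries against 3 an exact two-sided permutation test of a single gene cannot give a p-value below 0.1. These are bulk libraries, in which fewer expressing cells and less RNA per cell cannot be told apart. *PTPRC* (CD45), which marks leukocytes, had 0 counts in all 9 libraries.

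*CD70* was higher in both cancer lines than in HK2 and was the most abundant of the 8 ligands per kilobase in every line. The HK2 libraries had 63.8, 61.5 and 58.7 CPM of *CD70*, the 786-O libraries 359, 322.5 and 321.3 CPM, and the 786-M1A libraries 517, 465 and 452 CPM. The lowest cancer library was above the highest HK2 library, and the ranges of 786-O and 786-M1A did not meet either. On the log2 scale *CD70* was 2.45 ± 0.06 (SE) higher in 786-O than in HK2, a 5.46-fold difference (adjusted p = 9.76e-17, edgeR, n = 3 per line). In 786-M1A it was 2.97 ± 0.06 higher than in HK2, or 7.81-fold (adjusted p = 6.80e-18). The difference between 786-M1A and 786-O was smaller, 1.43-fold (log2 fold change 0.52, 95% confidence interval 0.41 to 0.63, adjusted p = 2.69e-07). Among all genes tested, 8.32% differed by more than *CD70* in either direction between 786-O and HK2, and 8.18% did between 786-M1A and HK2. *CD70* lies on chromosome 19 from 6583183 to 6604103 on the reverse strand (GENCODE release 44, GRCh38). Its receptor gene *CD27* had between 0 and 5 counts in the libraries of the 3 lines.

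**Figure D1:**
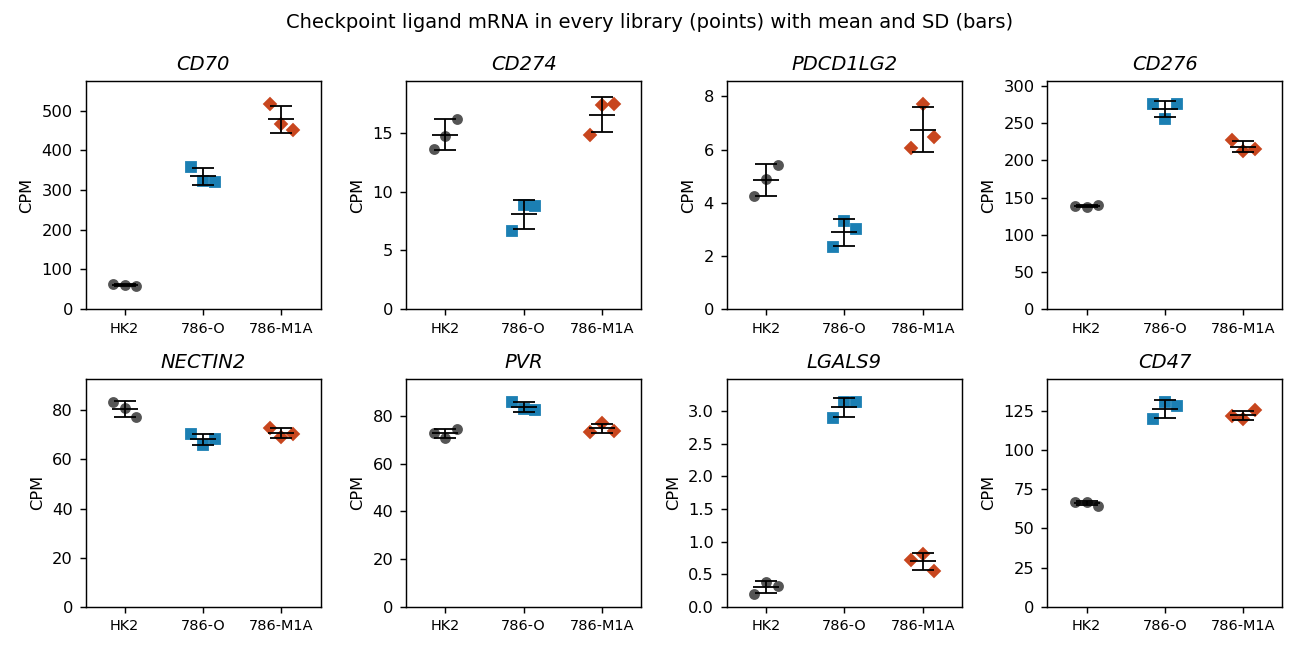
CPM of the 8 ligand genes (vertical axes, each starting at 0, with its own scale) in the 3 libraries of HK2, 786-O and 786-M1A. Points are libraries, bars are the mean and SD of 3 libraries, and *CD70* is seen to rise from a mean of 61.3 CPM in HK2 to 334 in 786-O and 478 in 786-M1A while *CD274* and *PDCD1LG2* are lowest in 786-O.

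The genes of the PD-1 ligands, *CD274* and *PDCD1LG2*, were lower in 786-O than in both other lines. *CD274* was at 13.7, 14.8 and 16.2 CPM in HK2, at 6.68, 8.87 and 8.77 CPM in 786-O, and at 14.9, 17.4 and 17.5 CPM in 786-M1A. No 786-O library reached the level of any other line, whereas the ranges of HK2 and 786-M1A overlapped. *CD274* was 1.85-fold lower in 786-O than in HK2 (log2 fold change -0.89 ± 0.10 SE, adjusted p = 4.18e-07) and 2.06-fold higher in 786-M1A than in 786-O (1.04 ± 0.10, adjusted p = 1.89e-07). For 786-M1A against HK2 *CD274* had a log2 fold change of 0.15, with a 95% confidence interval of -0.05 to 0.35, and did not pass the threshold (adjusted p = 0.145). That call rested on the settings. *CD274* passed with no filter on low counts (log2 fold change 0.18, adjusted p = 0.015), with the replicate number as a block (0.16, adjusted p = 0.0294) and without 786-M1A replicate 1 (0.22, adjusted p = 0.0324). The edgeR fit with no filter gave far smaller adjusted p-values for other called values too. For *CD274* in 786-M1A against 786-O it gave 4.74e-44, so its pass is weak evidence.

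*PDCD1LG2* was less abundant and followed the same order. Its libraries had 4.25, 4.90 and 5.43 CPM in HK2, 2.32, 3.30 and 3.03 CPM in 786-O, and 6.06, 7.72 and 6.48 CPM in 786-M1A. No range overlapped another, with 786-O lowest and 786-M1A highest. The gene was 1.72-fold lower in 786-O than in HK2 (log2 fold change -0.78 ± 0.13, adjusted p = 2.24e-05), 2.36-fold higher in 786-M1A than in 786-O (1.24 ± 0.13, adjusted p = 8.12e-08) and 1.38-fold higher in 786-M1A than in HK2 (0.46 ± 0.12, adjusted p = 0.00123). Among all genes, 7.02% differed more than *CD274* and 5.77% more than *PDCD1LG2* between 786-M1A and 786-O.

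The pair are neighbours on chromosome 9, *CD274* from 5450503 to 5470566 and *PDCD1LG2* from 5510531 to 5571282, both on the forward strand. The counts of *CD274* per count of *PDCD1LG2* in the same library, a ratio chosen after its values were seen, were 3.21, 3.02 and 2.99 in HK2, 2.87, 2.69 and 2.90 in 786-O, and 2.46, 2.25 and 2.70 in 786-M1A. Both cancer lines lay below HK2 without overlap (exact permutation p = 0.1, the smallest possible). The ranges of 786-M1A and 786-O overlapped (exact permutation p = 0.2). The ratio ran from a mean of 3.07 ± 0.12 (SD, n = 3) in HK2 to 2.47 ± 0.23 in 786-M1A.

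The RefSeq promoter table, which gives 300 bases around a start annotated by RefSeq, most of them before it, on GRCh38.p14, held windows for 6 of the 8 ligands. Gene positions are the outermost ends in GENCODE, which differ from the RefSeq starts, and the windows of *CD276*, *CD47* and *LGALS9* lie wholly downstream of the GENCODE start. The window of *CD274* is shown because this gene was lower in 786-O than in both other lines, and it lies at chr9:5450292-5450591 on the forward strand. Capitals would mark the core of a hypoxia response element, ACGTG or GCGTG on either strand, to which HIF proteins are known to bind; it has none of them.

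CD274 promoter: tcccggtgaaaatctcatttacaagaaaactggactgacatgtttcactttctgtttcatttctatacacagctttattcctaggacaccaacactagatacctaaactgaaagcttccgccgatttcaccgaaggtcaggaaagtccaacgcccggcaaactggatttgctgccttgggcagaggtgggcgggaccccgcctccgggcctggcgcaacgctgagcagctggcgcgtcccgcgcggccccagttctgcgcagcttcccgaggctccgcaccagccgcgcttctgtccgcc

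The core was found in 48.4% of the 35116 promoter windows of the table. The *CD274* window held 1 GC box (GGGCGG on either strand, in 45% of all windows) and no TATA box (TATAAA on either strand, in 11.5%). These are letters in a window and not binding sites.

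*CD276*, whose protein B7-H3 has no settled receptor on T cells, was higher in both cancer lines than in HK2 and highest in 786-O. The HK2 libraries had 139, 137 and 140.1 CPM, the 786-O libraries 275, 256 and 276 CPM, and the 786-M1A libraries 227, 213 and 216 CPM. The ranges of the 3 lines were apart, with 786-M1A between the others. *CD276* was 1.94-fold higher in 786-O than in HK2 (log2 fold change 0.96 ± 0.04, adjusted p = 9.99e-16) and 1.57-fold higher in 786-M1A than in HK2 (0.65 ± 0.04, adjusted p = 7.98e-13). From 786-O to 786-M1A it was 1.23-fold lower (-0.30 ± 0.04, adjusted p = 8.22e-07). The gene lies on chromosome 15 from 73683966 to 73714514 on the forward strand. It has a pair of RefSeq promoter windows, of which 1 held a single hypoxia core.

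*CD47* was raised to nearly the same level in both cancer lines. It was at 66.6, 67.1 and 64.6 CPM in HK2, at 120, 131 and 128 CPM in 786-O, and at 122, 120 and 125 CPM in 786-M1A. All 6 cancer libraries lay above the HK2 libraries, and those of the cancer lines overlapped each other. The difference from HK2 was 1.91-fold in 786-O (log2 fold change 0.93 ± 0.04, adjusted p = 4.41e-15) and 1.85-fold in 786-M1A (0.89 ± 0.04, adjusted p = 1.04e-14). Between 786-M1A and 786-O the log2 fold change was -0.047, with a 95% confidence interval of -0.131 to 0.037 (adjusted p = 0.333). *CD47* lies on chromosome 3 from 108043091 to 108091862 on the reverse strand. Its promoter window is shown because it held the most hypoxia cores among the ligands, 4 of them, in capitals, at chr3:108090982-108091281 on the reverse strand.

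CD47 promoter: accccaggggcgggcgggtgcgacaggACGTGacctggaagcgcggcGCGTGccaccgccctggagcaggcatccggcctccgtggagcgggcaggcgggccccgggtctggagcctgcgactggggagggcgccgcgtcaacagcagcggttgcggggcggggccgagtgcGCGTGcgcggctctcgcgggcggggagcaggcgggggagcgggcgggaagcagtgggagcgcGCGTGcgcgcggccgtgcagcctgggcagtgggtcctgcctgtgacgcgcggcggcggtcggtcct

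The *CD47* window also held 6 GC boxes, none of them overlapping a core, and 45 CpG dinucleotides, and 96.5% of all windows had fewer CpG. Its bases were 79.0% G or C, beside a median of 58.7% over all windows, and both forms of the core contain a CpG. The share of windows with 4 or more cores was not counted, and any role of these letters was not tested. The window of *NECTIN2* held 3 cores, and those of *PVR* and *LGALS9* held 0.

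*NECTIN2* and *PVR*, the ligands shared by TIGIT and CD226, differed by at most 1.18-fold and 1.15-fold in the 3 comparisons. *NECTIN2* was at 83.6, 81.1 and 77.2 CPM in HK2, at 70.2, 66.0 and 68.2 CPM in 786-O, and at 73.0, 69.1 and 70.3 CPM in 786-M1A. HK2 was above both cancer lines, whose libraries overlapped. The gene was 1.18-fold lower in 786-O (log2 fold change -0.24 ± 0.04, adjusted p = 2.34e-05) and 1.14-fold lower in 786-M1A than in HK2 (-0.19 ± 0.04, adjusted p = 4.20e-04). Among all genes, 71% and 78.8% differed by more than *NECTIN2* in these comparisons. Between the cancer lines its log2 fold change was 0.055 (95% confidence interval -0.035 to 0.145, adjusted p = 0.290). *NECTIN2* shares 128 exonic bases with an antisense transcript.

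*PVR* was slightly higher in 786-O than in both other lines. Its libraries had 72.8, 70.8 and 74.6 CPM in HK2, 86.1, 82.8 and 82.5 CPM in 786-O, and 73.3, 77.1 and 73.9 CPM in 786-M1A. The 786-O libraries were above all others, and those of HK2 and 786-M1A overlapped. *PVR* was 1.15-fold higher in 786-O than in HK2 (log2 fold change 0.20 ± 0.04, adjusted p = 8.47e-05) and 1.12-fold lower in 786-M1A than in 786-O (-0.17 ± 0.04, adjusted p = 0.00155). It did not pass for 786-M1A against HK2 (0.039, 95% confidence interval -0.045 to 0.124, adjusted p = 0.371). *PVR* shares 121 exonic bases with *CEACAM19* on the same strand, and reads there could be given to either gene. It also shares 2028 exonic bases with a same-strand GENCODE gene that is not in the count table. It lies on chromosome 19 from 44643798 to 44666162 and *NECTIN2* from 44846175 to 44889223, both on the forward strand.

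Counts of *NECTIN2* per count of *PVR* in a library, a ratio also chosen after its values were seen, were 1.15, 1.14 and 1.03 in HK2, 0.815, 0.796 and 0.827 in 786-O, and 0.995, 0.896 and 0.951 in 786-M1A. The 3 lines did not overlap in this ratio (exact permutation p = 0.1 for each of the 3 comparisons). The ratio was highest in HK2 and lowest in 786-O.

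**Figure D2:**
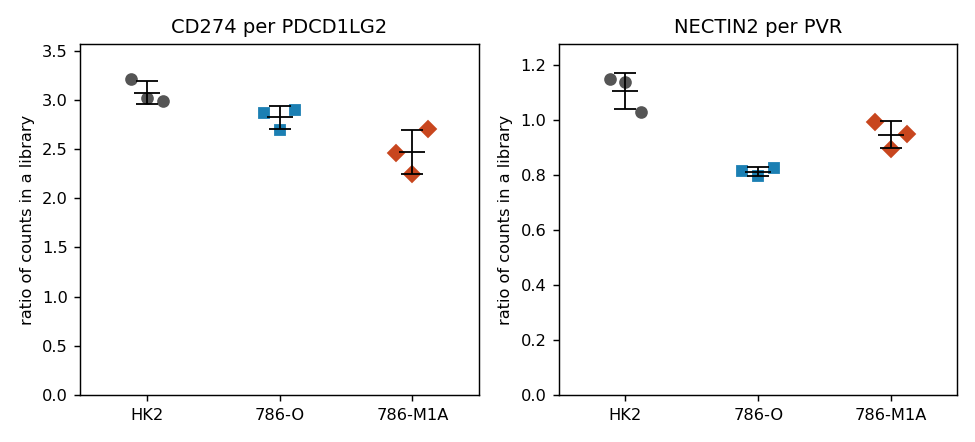
Ratio of the counts of 2 genes within a library (vertical axes from 0), *CD274* per *PDCD1LG2* on the left and *NECTIN2* per *PVR* on the right, for the 3 libraries of each line with the mean and SD. The *NECTIN2* per *PVR* ratio averages 1.11 for HK2, 0.813 for 786-O and 0.948 for 786-M1A.

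*LGALS9* had the fewest counts of the 8 in HK2 and 786-M1A, and its log2 fold changes were the largest of the 8 for 786-O against HK2 and between the cancer lines. HK2 libraries had 6, 15 and 15 counts (0.193, 0.373 and 0.324 CPM), 786-O libraries 128, 118 and 133 counts (2.89, 3.14 and 3.14 CPM), and 786-M1A libraries 26, 31 and 21 counts (0.719, 0.808 and 0.555 CPM). The lines did not overlap, and 786-M1A lay between the others. The gene was 9.88-fold higher in 786-O than in HK2 (log2 fold change 3.30 ± 0.19, adjusted p = 6.68e-13), 2.26-fold higher in 786-M1A than in HK2 (1.17 ± 0.27, adjusted p = 4.84e-04) and 4.38-fold lower in 786-M1A than in 786-O (-2.13 ± 0.16, adjusted p = 3.98e-10). Its near-identical copies *LGALS9B* and *LGALS9C* had at most 1 and 8 counts in any library. Reads can be split between the copies, and *LGALS9* also shares 294 exonic bases with a readthrough gene that is not in the count table. With the 3 genes summed the log2 fold changes were 3.23, 1.08 and -2.15.

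*LGALS9* lies on chromosome 17 from 27629798 to 27649560 on the forward strand. Its promoter window, at chr17:27630938-27631237 on the forward strand, is shown as that of the ligand with the largest fold difference between 2 lines, and it lies inside the GENCODE gene. It held no hypoxia core, GC box or TATA box and 2 CpG dinucleotides, and 11.0% of all windows had fewer.

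LGALS9 promoter: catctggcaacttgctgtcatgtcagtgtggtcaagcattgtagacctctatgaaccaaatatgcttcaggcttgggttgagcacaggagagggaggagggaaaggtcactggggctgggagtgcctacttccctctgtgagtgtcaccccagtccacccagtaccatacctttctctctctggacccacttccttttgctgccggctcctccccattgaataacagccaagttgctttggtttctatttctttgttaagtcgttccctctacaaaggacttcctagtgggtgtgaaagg

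Counted over the 8 ligands, all 8 were called for 786-O against HK2, 5 higher and 3 lower, where 84.2% of all genes tested were called, 41.6% higher and 42.6% lower. For 786-M1A against HK2, 6 of the 8 were called, 5 higher and 1 lower, where 84.9% of all genes were, 41.6% higher and 43.3% lower. For 786-M1A against 786-O, 6 of the 8 were called, 3 higher and 3 lower, where 56% of all genes were, 27.9% higher and 28% lower. The libraries of the lines compared did not overlap for 8, 6 and 6 of the ligands and for 85.5%, 85% and 61.6% of all genes. Shares of called ligands near these backgrounds are no result about the ligands. At least 2-fold differences were called for 2, 2 and 3 of the 8 in the 3 comparisons, where 22.3%, 25.4% and 6.59% of all genes were. The median log2 fold change of the 8 was 0.57 for 786-O against HK2, 0.56 for 786-M1A against HK2 and 0.004 between the cancer lines, beside -0.013, -0.019 and 0 over all genes. The comparisons with HK2 share its libraries. The contrast of 786-M1A with 786-O is also the difference between their differences from HK2. The 6 ligands whose difference from HK2 itself differed are thus the 6 called there, where 56% of all genes were.

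**Figure D3:**
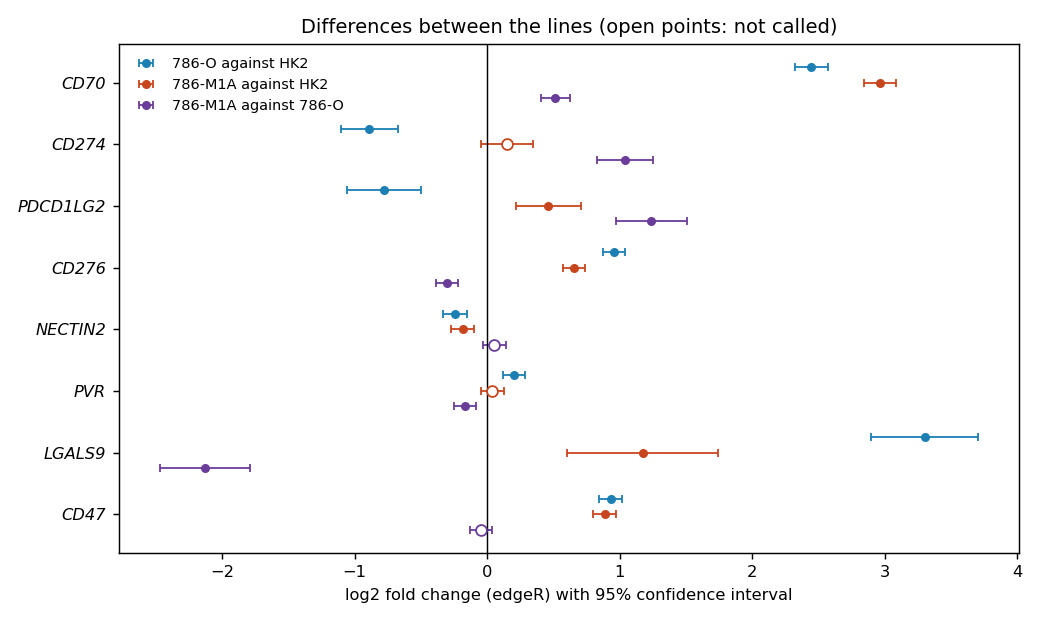
Log2 fold change of each ligand gene (horizontal axis) in the 3 comparisons, with the 95% confidence interval of edgeR's fit. Filled points passed an adjusted p of 0.05 and open points did not, and *CD274* and *PDCD1LG2* are seen below 0 for 786-O against HK2 and above 1 for 786-M1A against 786-O.

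Levels of different genes were compared per kilobase, as RPKM over the union of all annotated exons. In HK2 *CD70* was at 40.1 ± 1.68 RPKM (SD, n = 3), *CD276* at 25.3 ± 0.24, *NECTIN2* at 21.5 ± 0.86, *CD47* at 8.03 ± 0.16 and *PVR* at 6.98 ± 0.18. *CD274* had 3.62 ± 0.32 RPKM there, *PDCD1LG2* 2.00 ± 0.24 and *LGALS9* 0.052 ± 0.016. This order held in all 3 lines, and no neighbours in it overlapped between libraries. *CD70* reached 218 ± 14.02 RPKM in 786-O and 313 ± 22.5 RPKM in 786-M1A, where *CD276* came second with 49.1 ± 2.05 and 39.8 ± 1.38 RPKM. Of the summed RPKM of the 8 genes, *CD70* made up 36.3% to 38.1% in the HK2 libraries. Its part was 68.6% to 71.2% in 786-O and 77.2% to 79.2% in 786-M1A.

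With the length of the canonical transcript in place of all exons, *CD70* and *CD276* kept the first and second place in the 3 lines. *CD47* and *PVR* could then not be ordered in HK2 (12.5 ± 0.25 and 12.6 ± 0.32 RPKM), nor *NECTIN2* and *CD47* in 786-O (25.3 ± 0.78 and 23.9 ± 1.06 RPKM), since their libraries overlapped. In 786-O *LGALS9*, at 1.77 ± 0.08 RPKM, was then above *PDCD1LG2*, at 1.19 ± 0.21 RPKM.

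**Figure D4:**
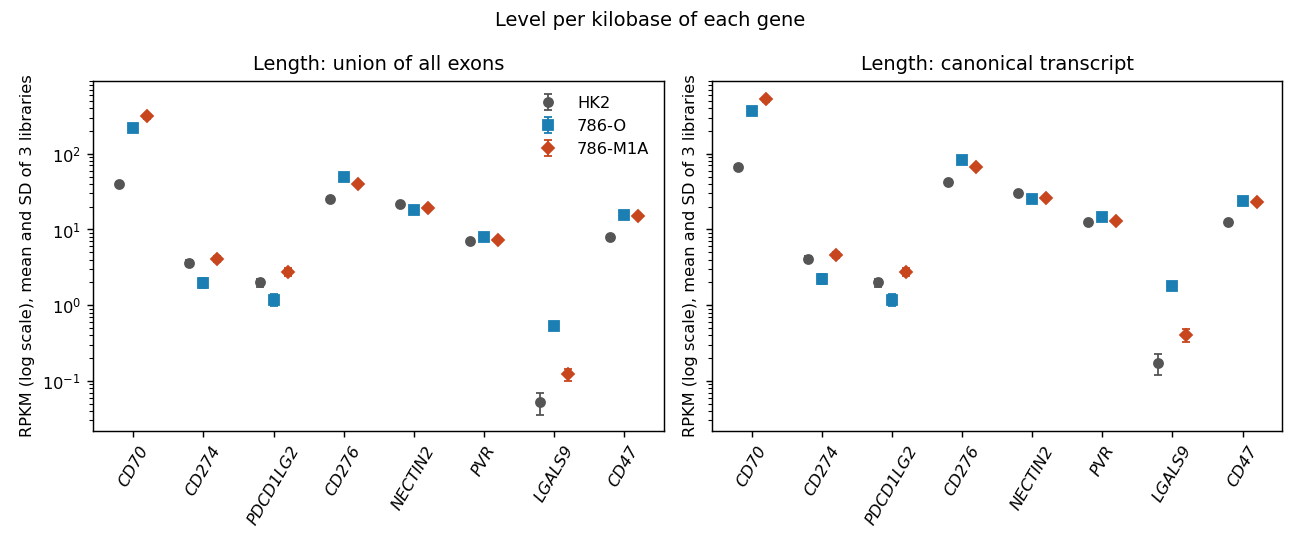
Mean and SD over 3 libraries of the RPKM of each ligand gene (log scale) in HK2, 786-O and 786-M1A, with the gene length taken as the union of exons (left) or as the canonical transcript (right). *CD70* is the highest point in every line under both lengths.

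Most genes in a list of receptors, of these ligands and of other immune ligands, fell below the filter. Of the 17 receptor genes, 3 passed the filter on low counts: *SIRPA*, *PVRIG* and *TNFRSF9*. *SIRPA*, the receptor of CD47, was at 119 ± 3.81 CPM in HK2, 202 ± 4.55 CPM in 786-O and 254 ± 1.51 in 786-M1A (log2 fold change 0.77 and 1.10 against HK2, adjusted p = 1.51e-14 and 2.22e-17). *TNFRSF9*, which encodes 4-1BB, was lower in 786-O than in HK2 (-0.81 ± 0.10, adjusted p = 9.37e-08) and higher in 786-M1A than in 786-O (0.90 ± 0.10, adjusted p = 7.20e-08). *PVRIG*, a receptor of NECTIN2, was lower in 786-O than in HK2 (-0.43 ± 0.12, adjusted p = 0.00172). *PDCD1*, which encodes PD-1, had 92 to 174 counts in the libraries of HK2, at most 1 in those of 786-O and 0 in 786-M1A, and its mean over the 9 libraries was below the filter. *TIGIT*, *CTLA4*, *CD28*, *ICOS* and *KLRK1* had 0 counts in every library.

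A list of 30 other ligands of immune receptors was set beside the 8, and 16 of them passed the filter. In 786-O against HK2, 6 of the 16 were higher, 6 lower and 4 not called, where 84.2% of all genes were called. The median log2 fold change of the 16 was 0, beside -0.013 over all genes. *VSIR*, the inhibitory ligand VISTA, fell by 3.66 ± 0.09 on the log2 scale (adjusted p = 6.08e-20), and *MICB*, a ligand of the natural killer receptor NKG2D, was 5.68-fold lower (adjusted p = 1.59e-20). Other NKG2D ligands did not follow *MICB*. *MICA* was 1.285-fold higher (adjusted p = 1.53e-07), *ULBP2* was 1.364-fold higher (adjusted p = 1.03e-06), *ULBP3* was not called and *ULBP1* fell below the filter. *CD24*, a ligand of SIGLEC receptors on macrophages, was 3.91-fold higher (adjusted p = 1.06e-17), and *LGALS3* (galectin-3) was 3.87-fold lower (adjusted p = 1.59e-20). In 786-M1A against HK2, 7 were higher, 6 lower and 3 not called, where 84.9% of all genes were called. *LGALS1* (galectin-1) stood at 333 ± 12.2 CPM in HK2, 727 ± 25.4 CPM in 786-O and 1248 ± 61.0 in 786-M1A, and was 3.75-fold higher in 786-M1A than in HK2 (adjusted p = 9.50e-21).

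Between 786-M1A and 786-O, 8 of the 16 other ligands were higher, 4 lower and 4 not called, where 27.9% of all genes were higher and 28% lower. *TNFRSF14*, which encodes the BTLA ligand HVEM, moved most, from 1.40 ± 0.20 CPM in 786-O to 6.77 ± 0.57 CPM in 786-M1A (log2 fold change 2.27 ± 0.13, adjusted p = 2.15e-12). In HK2 it was at 7.64 ± 0.83 CPM, so that, like *CD274* and *PDCD1LG2*, it was lowest in 786-O. *VSIR* was lower still in 786-M1A than in 786-O (-0.84 ± 0.15, adjusted p = 4.75e-05). Ligands of the CD28 family receptors on antigen-presenting cells, *CD80* and *CD86*, had at most 1 count in any library.

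Genes that act on *CD274* passed the filter in 21 of 22 cases. In 786-O against HK2, 7 were higher, 12 lower and 2 not called, where 84.2% of all genes were called. The median log2 fold change of the 21 was -0.12, beside -0.013 over all genes. *HIF1A*, the hypoxia-inducible factor whose loss in 786-O is known, was at 702 ± 20.2 CPM in HK2, 10.01 ± 0.39 CPM in 786-O and 6.77 ± 0.22 in 786-M1A. *MYC* was 3.93-fold lower in 786-O and 4.56-fold lower in 786-M1A than in HK2, and the mRNA of *EPAS1* (HIF2A) was 3.85-fold and 2.48-fold lower. These mRNA levels do not measure the protein or its activity. The paper, which names *VHL* loss as a driver of ccRCC, inferred activation of HIF2A in ccRCC cells grown in Plasmax from RNA-seq. *JAK2*, also on chromosome 9, was 3.37-fold and 2.71-fold higher in 786-O and 786-M1A than in HK2.

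Between 786-M1A and 786-O, 7 of the 21 were higher, 8 lower and 6 not called, where 56% of all genes were called. *RELB*, a subunit of NF-kappaB, was the one that differed most, at 20.4 ± 1.55 CPM in HK2, 15.4 ± 0.60 CPM in 786-O and 29.2 ± 1.77 in 786-M1A (log2 fold change 0.92 ± 0.06 between the cancer lines, adjusted p = 5.13e-11). *RELB* was thus lowest in 786-O, as *CD274* was, but it was not alone in this list. The means of *EPAS1*, *JAK1*, *IFNGR1*, *NFKB1*, *NFKB2*, *IRF9* and *VHL* were also lowest in 786-O. Of these, *VHL*, *IFNGR1* and *IRF9* were not called between the cancer lines (adjusted p = 0.272, 0.103 and 0.0563, edgeR). *IRF9* was not called for 786-O against HK2 either (adjusted p = 0.124). A link of any gene of the list to *CD274* was not tested. *EPAS1* was 1.55-fold higher in 786-M1A than in 786-O (adjusted p = 8.02e-11) and *JAK2* 1.24-fold lower (adjusted p = 4.26e-04).

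All 7 genes fixed as partners of CD47 passed the filter. *SIRPA* was the 1 that was higher in both cancer lines than in HK2, while the other 6 were lower in both, where 84.2% of all genes were called for 786-O and 84.9% for 786-M1A. *THBS2*, a thrombospondin, was at 108 ± 8.86 CPM in HK2, 0.83 ± 0.11 CPM in 786-O and 0.47 ± 0.07 in 786-M1A. *THBS1*, also a thrombospondin, was 2.63-fold lower in 786-M1A than in HK2 (adjusted p = 1.19e-10) and 2.11-fold lower than in 786-O (adjusted p = 8.83e-09). *QPCT*, a glutaminyl cyclase, had 600 to 837 counts in HK2 libraries, 0 to 2 in 786-O and 25 to 47 in 786-M1A. Its relative *QPCTL*, which modifies the end of CD47 that SIRPA binds, was at 17.0 ± 0.10 CPM in HK2, 14.7 ± 0.89 CPM in 786-O and 15.3 ± 1.23 in 786-M1A.

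**Figure D5:**
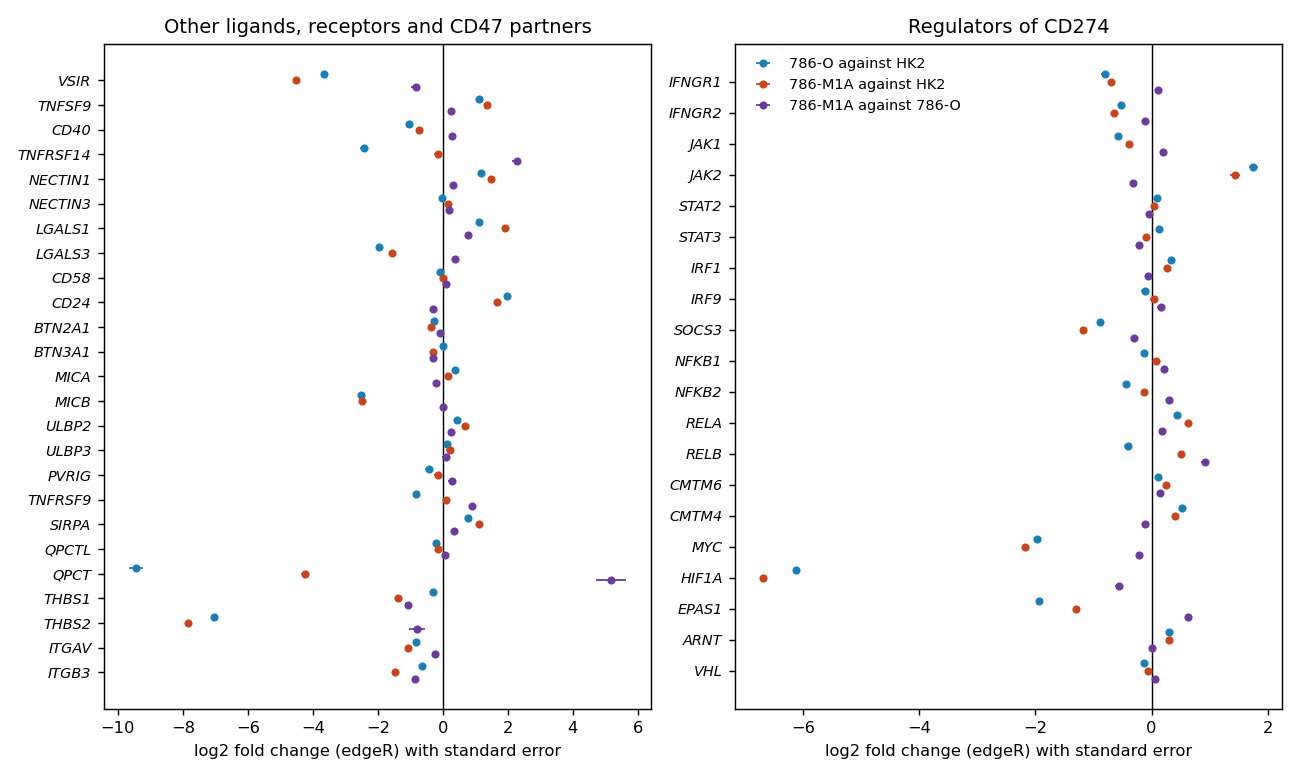
Log2 fold change with standard error (horizontal axes) of genes that passed the filter among other immune ligands, receptors and CD47 partners (left) and among regulators of *CD274* (right), in the 3 comparisons. *TNFRSF14* at 2.27 and *RELB* at 0.92 are the genes of their lists other than *QPCT* that lie farthest to the right between 786-M1A and 786-O.

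Of 15 immune cell markers, 6 were at 0 in all libraries and 1, *CSF1R*, passed the filter. The summed level of these markers was 12.2 to 13.9 CPM in HK2, 8.23 to 9.33 in 786-O and 4.34 to 5.34 in 786-M1A, most of it *CSF1R* (11.5, 7.25 and 4.19 CPM on average). *CD8A* had 13 to 29 counts in HK2 and *GNLY* 23 to 30 counts in 786-O. None of 5 endothelial markers passed. Their sum was 2.58 to 2.68 CPM in HK2, most of it *TIE1* (2.41 CPM on average), and at most 0.699 CPM in the cancer lines. The part of these markers in the results was not tested.

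Among 14 proximal tubule markers 8 passed, with *PAX8* at 167 ± 5.67 CPM in HK2, 165 ± 6.42 CPM in 786-O and 182 ± 8.51 in 786-M1A, while *LRP2* (megalin) was at 0 in all libraries. In 786-O against HK2, 3 of these 8 were higher, 4 lower and 1 not called, where 84.2% of all genes were called. *ANPEP* was 64.6-fold and *PAX2* 7.11-fold higher, while *MME* had a log2 fold change of -0.81, *HAVCR1* of -0.49, *GGT1* of -0.42 and *CDH16* of -0.18. Of the 5 ccRCC markers that passed, 3 were higher in 786-O than in HK2, 1 lower and 1, *ANGPTL4*, not called. *EGLN3* was 29.3-fold, *VEGFA* 8.37-fold and *SLC2A1* 4.18-fold higher, *CDH6* was 2.16-fold lower, and *CA9* had at most 3 counts in any library.

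As a description, the genes tested whose log2 CPM over the 9 libraries ran closest to each ligand were found by the root mean square distance of centred values. *SERINC2* (distance 0.064) and *SEMA4B* (0.107) were near *CD70*. *KCNQ5* was the nearest to both *CD274* (0.084) and *PDCD1LG2* (0.141), and *CD274* was the second nearest to *PDCD1LG2* (0.148). *FKBP10*, *WHAMM* and *DAP* lay within 0.044 of *CD276*, *RNPEP*, *COPZ1* and *KAT8* within 0.029 of *NECTIN2*, *EXOC7*, *ZNF317* and *BMPR1A* within 0.033 of *PVR*, and *STX16*, *APP* and *TAF7* within 0.037 of *CD47*. Distances were larger for *LGALS9*, whose nearest gene was *TNFAIP6* at 0.30, though the Pearson correlation of the pair over the 9 libraries was 0.99. This distance widens with low counts and large fold changes, so it cannot show whether *LGALS9* stands apart. The points share the libraries and their scaling.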

How the data were processed

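RNA-seq libraries of HK2, 786-O and 786-M1A (TruSeq Stranded mRNA, 3 per line) were grouped by their labels. The authors deposited whole-number counts per NCBI gene identifier for 28395 genes, made with Rsubread on hg38 (featureCounts and GRCh38 in the submitters' processing notes) and neither normalized nor filtered. The annotation version and the use of strand in counting are not given in the sources used here. The replicates were parallel dishes plated the day before extraction, so p-values measure the spread between these samples, which may be technical. No 2 libraries agreed within sampling noise (chi-square per degree of freedom 3.11 to 8.66), and 9 of 9 correlated best with their own line.

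Symbols came from RefSeq (27745 identifiers matched), gene positions and lengths from GENCODE release 44, and promoter windows from RefSeq GRCh38.p14. The 12695 genes that averaged 50 counts or more were tested in 1 fit of all 9 libraries with edgeR 4.0.16 in R 4.3.3 (TMM factors 0.967 to 1.03, robust quasi-likelihood test, Benjamini-Hochberg over all genes tested, threshold 0.05). Library sizes are the sums over the tested genes. A count of 3, taken as the floor, is 0.0661 to 0.0993 CPM, for counting error only. Standard errors came from the fold change and the F statistic, and permutation tests were exact and two-sided on log2 CPM (prior count 2) or on the ratios. RPKM used CPM per kilobase. The model was tested on simulated data.

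The 8 genes and the gene lists were chosen with earlier results of these data known. Of each list the text names genes among the 5 with the largest called log2 fold changes in a comparison, and those at 0. Genes named outside this rule, such as *QPCTL*, *PDCD1*, *PAX8*, *CD80* and *CD8A*, were chosen after their values were seen. 1 gene of the lists is not reported here. Up to 3 nearest profiles are named per ligand, without Y-linked genes. Alternatives were DESeq2 1.42.0, RLE and upper-quartile scaling, other count filters, median-centred log2 counts with limma 3.58.1 in place of the VSN step of the study's methods, fits of the 2 lines compared, a replicate block, each library left out, summed *LGALS9* copies and another gene length. Python 3.11.15 was used for the other steps.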

Additional observations from a re-analysis of the deposited data

Results flagged for a closer look

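Among the 8 ligands, 6 had a difference from HK2 that itself differed between 786-M1A and 786-O. The test of that difference is the contrast of 786-M1A with 786-O, adjusted over all genes tested by edgeR, and 56% of all genes passed it.

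For *CD70* the log2 fold change from HK2 was larger in 786-M1A by 0.516 (adjusted p = 2.69e-07). For *CD274* it was larger by 1.04 (adjusted p = 1.89e-07) and for *PDCD1LG2* by 1.239 (adjusted p = 8.12e-08). These 2 genes had log2 fold changes from HK2 of opposite sign in 786-O (-0.89 and -0.78) and 786-M1A (0.15 and 0.46), and that of *CD274* in 786-M1A was not called. The value for 786-M1A minus that for 786-O was -0.303 for *CD276* (adjusted p = 8.22e-07), -0.165 for *PVR* (adjusted p = 0.00155) and -2.13 for *LGALS9* (adjusted p = 3.98e-10). In the last gene it rests on 21 to 31 counts per 786-M1A library.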

How the results depend on the processing

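The 24 comparisons of a ligand were recomputed 408 times in all under the alternatives. Some of these fits left out a library of the line not compared, which can hardly move the fold change, so they are weak checks. Of the 408, 405 kept the direction of a called value and the side of the threshold. The other 3 concern *CD274* in 786-M1A against HK2, which became called with no filter on low counts (0.178), with the replicate block (0.158, adjusted p = 0.0294) and without 786-M1A replicate 1 (0.221), over a range of 0.098 to 0.222 when each library was left out. *PVR* in 786-M1A against HK2, which was not called, went to -0.009 under upper-quartile scaling. *LGALS9* failed when 10 counts were asked of every library and has no value there. With no filter, the genes called with at least 2-fold differences were 5410 for 786-O against HK2, 5895 for 786-M1A against HK2 and 1592 between the cancer lines, where 2829, 3220 and 836 were called with it. More genes were tested without the filter, 21241 against 12695, and adjusted p-values of called ligands were also smaller. With the canonical transcript length, a choice made after seeing the data, *CD70* made up 39.4% of the summed RPKM in HK2 and 79.3% in 786-M1A, against means of 37.3% and 78.1%.

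The replicate numbers were not taken to pair the libraries, since the correlations between deviations of same-numbered libraries were not all over 0.1. They were -0.057 to -0.029 for 786-O and HK2, -0.167 to 0.038 for 786-M1A and HK2, and 0.074 to 0.215 for the cancer lines, where 6 of 6 libraries correlated best with their own number, a hint of shared variation in the data that the labels do not give (0 and 1 of 6 in the others). The block left 10688, 10797 and 7157 genes called, against 10693, 10784 and 7103 without it, and changed no other call of a ligand. Depth limits *LGALS9* most, with 6 to 15 counts per HK2 library.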

Other observations

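Within each line, replicate 1 had the highest *CD70* and *NECTIN2* and the lowest *CD274* and *PDCD1LG2* of its 3 libraries. In 786-O replicate 1, for example, *CD70* was at 359 CPM and *CD274* at 6.68 CPM. *CD276* was lowest in replicate 2 of all 3 lines. The differences between lines in the report are larger than these within-line differences for *CD70*, and the order was noticed after the values were seen and not tested.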
